A study of Mus musculus with 8 samples.

Results

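Genes of collagen chains, of fibronectin, of the matrix protein SPARC and of smooth-muscle-type contractile proteins were examined in cultures of mouse macrophages. The 10 genes Col1a1, Col1a2, Col3a1, Col4a1, Col4a2, Fn1, Sparc, Acta2, Tagln and Lgals1 were taken by name from the 49315 genes in the count data, and all 10 passed the filter on low counts that left 13051 genes for testing. The cultures were bone marrow-derived macrophages (BMDMs), which are grown from marrow cells in dishes, here from C57BL/6 mice with 10 ng/ml of mMCSF, the growth factor of the macrophage lineage. The 4 libraries of the first group came from BMDMs transfected with a control gapmeR (replicates 2, 5, 6 and 7), and the 4 of the second from BMDMs transfected with a gapmeR against the long non-coding RNA MAARS (replicates 9, 11, 13 and 15). A gapmeR is a short antisense oligonucleotide that directs cleavage of its target RNA, and the labels give its dose as 25 nM in both groups. The labels mark the libraries as separate samples but do not say that they came from separate mice or cultures, so p-values measure only the spread between these samples, which may be technical.

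Fibrillar collagens (types I and III) are secreted as triple helices and assembled into fibres, and fibroblasts, osteoblasts and smooth muscle cells are their best known sources. Type IV collagen forms the sheet-like network of basement membranes, and fibronectin is laid down as fibrils to which cells attach through integrins. Smooth muscle alpha-actin and transgelin are parts of the contractile apparatus of smooth muscle cells and myofibroblasts, and galectin-1, a sugar-binding protein, is made by many cell types, macrophages among them.

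Col4a1 and Col4a2 encode the most widespread pair of type IV collagen chains and lie head to head, transcribed in opposite directions. In GENCODE M21 their transcripts start inside each other and share 22 bases. The sequence is shown because reads there could belong to either gene. It is given on the plus strand of GRCm38, the strand of Col4a2, at chr8:11312801-11312830, and the shared bases are in capitals:
Col4a1-Col4a2: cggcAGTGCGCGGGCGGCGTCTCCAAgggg
For Acta2 the stretch shown is the match to a CArG box, the element that serum response factor binds in genes of smooth muscle contraction. Its consensus is CC, then 6 bases that are each A or T, then GG, and it reads the same on both strands. The stretch lies at chr19:34255438-34255467 on the minus strand of GRCm38, and the capitals mark the match, which has 1 base outside the consensus:
Acta2: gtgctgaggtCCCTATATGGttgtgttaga
The match began 84 bases before the start of Acta2 in RefSeq, from which the sequence was taken, and 133 bases inside the start of the gene as annotated in GENCODE M21. RefSeq promoter windows, from 250 bases before to 50 bases after a start, were matched for 6 of the 10 genes, Sparc, Col1a2, Col3a1, Col4a1, Col4a2 and Acta2. None of the 6 windows held the full consensus, which 1.63% of all 32851 windows held. With 1 base outside the consensus allowed, Acta2 and Col1a2 held 2 matches each and the other 4 genes none, and 21.1% of all windows held at least 1. A match is a description of the letters and not a binding site.

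Each library held between 19287279 and 24541205 counts on genes. MAARS, listed as Gm14461, fell from 13.1 ± 1.36 to 6.82 ± 0.845 CPM, counts scaled to library size with TMM factors (SD, n = 4), a log2 fold change of -0.95 (SE 0.112, adjusted p = 5.8e-05). The labelled cell type was checked on 12 macrophage markers, all of which were measured, with Lyz2 at 9402 ± 1240 CPM, Cd68 at 2162 ± 74.2 CPM and Csf1r at 1177 ± 93.7 CPM in the control libraries (SD, n = 4). Over all genes, 45.4% differed at an adjusted p under 0.05 by edgeR's quasi-likelihood test, 21.3% higher and 24% lower with the MAARS gapmeR. Counts of called genes given here are read against these shares.

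Of the 10 genes, 5 were higher with the MAARS gapmeR, none was lower, and 5 did not pass the test, beside the 21.3% of all genes that were called higher. The called genes were both type IV collagen chains, both smooth-muscle-type genes and the galectin. The fibrillar collagens, fibronectin and Sparc had positive differences that did not exceed the spread between libraries. The median log2 fold change of the 10 genes was 0.43, and that of all genes tested was 0.008. The median standard error of the 10 was 0.227, and that of all genes was 0.0839. Only Acta2 and Lgals1 of the 10 had all 4 MAARS gapmeR libraries above all 4 control libraries, a pattern found in 19.3% of all genes tested. In RNA of a whole culture, a change in the number of cells of a type and a change in the RNA per cell cannot be told apart.

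**Figure D1:**
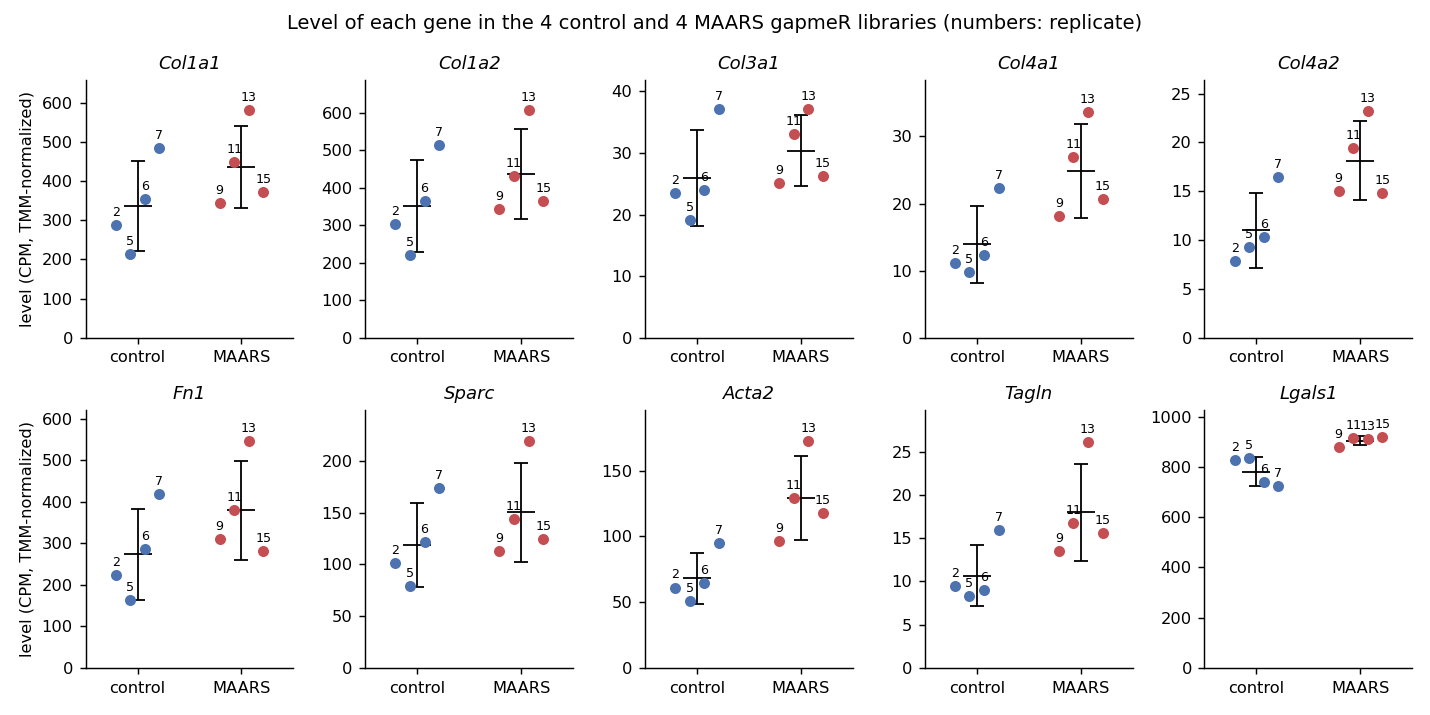
Level of the 10 genes in each library, in TMM-normalized CPM on linear axes that start at 0. Points are libraries with their replicate numbers, and bars are the mean ± SD of 4 libraries. Control 7 and MAARS 13 are the highest libraries of their groups in every panel except Lgals1.

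Acta2 had the largest log2 fold change of the 10 genes with all 8 libraries. It encodes smooth muscle alpha-actin and lies at chr19:34241090-34255590 on the minus strand. Its level was 61.2, 51.0, 64.7 and 95.3 CPM in control 2, 5, 6 and 7, and 96.3, 129.4, 172.3 and 117.9 CPM in MAARS 9, 11, 13 and 15. The groups did not overlap, but the highest control library and the lowest MAARS gapmeR library were close to each other. The means were 68.1 ± 19.1 and 129.0 ± 32.0 CPM (SD, n = 4), a 1.89-fold rise (log2 fold change 0.92, SE 0.195, adjusted p = 0.00272). Acta2 was called in all 18 alternative fits, with a log2 fold change between 0.75 and 1.13 when any single library was left out.

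Tagln encodes transgelin, an actin-binding protein of smooth muscle, and lies at chr9:45929619-45936058 on the minus strand. The control libraries gave 9.47, 8.31, 8.98 and 15.9 CPM in the same order, and the MAARS gapmeR libraries 13.5, 16.7, 26.1 and 15.6 CPM. The groups overlapped, since control 7 lay above MAARS 9 and MAARS 15. The means were 10.7 ± 3.53 and 18.0 ± 5.60 CPM (SD, n = 4), with a log2 fold change of 0.75 (SE 0.234, adjusted p = 0.0218). This call was lost without control 5, control 6 or MAARS 13 and with a robust prior, at adjusted p-values of 0.0618 to 0.0641. The log2 fold change stayed between 0.51 and 1.01 when any single library was left out. Of the exonic bases of Tagln, 62.4% lie opposite the antisense gene Gm48529, which held 34 to 55 counts per library where Tagln held 163 to 569. Of the same exonic bases 5.43% lie opposite Pcsk7, which held 766 to 1034 counts per library. The strand setting of the counting is not given in the sources used here, so how reads in the shared bases were assigned is not known.

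The type IV collagen chains followed the same course. Col4a1, at chr8:11198423-11312826 on the minus strand, gave 11.2, 9.78, 12.4 and 22.2 CPM in control 2, 5, 6 and 7. In MAARS 9, 11, 13 and 15 it gave 18.1, 26.9, 33.7 and 20.7 CPM. MAARS 11 and 13 lay above every control library, and MAARS 9 and 15 lay between control 7 and the other controls. The means were 13.9 ± 5.67 and 24.9 ± 6.96 CPM (SD, n = 4), with a log2 fold change of 0.84 (SE 0.251, adjusted p = 0.0184). As for Tagln, the call was lost without control 5, control 6 or MAARS 13 and with a robust prior, at adjusted p-values of 0.0506 to 0.0703. The log2 fold change stayed between 0.65 and 1.16 when any single library was left out.

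Col4a2, at chr8:11312805-11449287 on the plus strand, encodes the partner chain. Its level was 7.83, 9.32, 10.3 and 16.5 CPM in control 2, 5, 6 and 7, and 15, 19.5, 23.2 and 14.8 CPM in MAARS 9, 11, 13 and 15. Here too control 7 was the 1 control library that reached into the range of the other group. The log2 fold change was 0.72 (SE 0.215, adjusted p = 0.0181) between means of 11 ± 3.81 and 18.1 ± 4.02 CPM (SD, n = 4). It was lost as a call without control 5 (adjusted p = 0.0534) or MAARS 13 (adjusted p = 0.0559). The value stayed between 0.57 and 0.98 when any single library was left out. The 22 shared bases shown above make up 0.332% of the exonic bases of Col4a2 and 0.295% of those of Col4a1.

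Lgals1, the gene of galectin-1 at chr15:78926725-78930465 on the plus strand, behaved differently from the other 9 genes within the groups. Its level was 826.2, 833.3, 740.2 and 723.9 CPM in control 2, 5, 6 and 7, and 877.4, 913.3, 910.7 and 917.6 CPM in MAARS 9, 11, 13 and 15. The groups did not overlap, and control 7 was the lowest control library here. The rise was small, from 780.9 ± 56.9 to 904.7 ± 18.5 CPM (SD, n = 4), with a log2 fold change of 0.21 (SE 0.0558, adjusted p = 0.00928). Lgals1 was called in 17 of 18 alternative fits, the exception being the fit without both control 7 and MAARS 13 (adjusted p = 0.0585).

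Col1a1 and Col1a2 encode the chains of type I collagen, and Col3a1 that of type III. Col1a1 (chr11:94936224-94953042, plus strand) gave 288.1, 213.6, 355.2 and 484.4 CPM in control 2, 5, 6 and 7, and 344.9, 448.0, 580.9 and 372.1 CPM in MAARS 9, 11, 13 and 15. Only MAARS 13 lay above every control library. The log2 fold change was 0.38 with a 95% interval of -0.05 to 0.82 (adjusted p = 0.183), so neither no difference nor a rise of the size seen for Tagln fell outside it.

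Col1a2 (chr6:4504814-4541544, plus strand) gave 304.0, 221.7, 365.6 and 514.2 CPM in the control libraries and 343.2, 431.6, 606.1 and 365.2 CPM in the MAARS gapmeR libraries, in the same order of replicates. Its log2 fold change was 0.31 (95% interval -0.14 to 0.77, adjusted p = 0.295). Col3a1 (chr1:45311538-45349706, plus strand) was far lower, at 23.6, 19.2, 24 and 37.1 CPM in the control libraries and 25.1, 33.1, 37.1 and 26.2 CPM in the others. The highest library of each group held the same level of Col3a1 to 3 digits, and the log2 fold change was 0.23 (95% interval -0.14 to 0.59, adjusted p = 0.343).

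Fn1, the fibronectin gene (chr1:71585520-71653200, minus strand), gave 223.0, 164.7, 286.5 and 420.0 CPM in control 2, 5, 6 and 7, and 310.0, 379.8, 546.1 and 281.8 CPM in MAARS 9, 11, 13 and 15. Its control libraries spread 2.55-fold from lowest to highest, the widest of the 10 genes. The log2 fold change was 0.47 (95% interval -0.05 to 0.99, adjusted p = 0.166). Sparc encodes a collagen-binding matricellular glycoprotein (chr11:55394500-55423183, minus strand). It gave 101.8, 78.7, 121.5 and 174.3 CPM in the control libraries and 113.4, 143.9, 219.7 and 124.3 CPM in the others, with a log2 fold change of 0.34 (95% interval -0.13 to 0.81, adjusted p = 0.277). Each of these 5 genes had a single MAARS gapmeR library, MAARS 13, at or above the highest control library.

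The libraries of a group differed widely in all of these genes but Lgals1, called or not, and much of the order of the libraries was shared. Control 7 was the highest control library and MAARS 13 the highest MAARS gapmeR library in 9 of the 10 genes, Lgals1 being the exception, whereas both held in 963 of the 13051 genes tested (7.38%). Taken alone, control 7 was highest in 21.5% of all genes and MAARS 13 in 24.7%. The full order of control libraries, 7 over 6 over 2 over 5, was the same for Fn1, Sparc, Col1a1, Col1a2, Col3a1, Col4a1 and Acta2. Control 5 was the lowest control library in 8 of the 10 genes and in 24% of all genes.

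The spread of the 9 genes within a group was wide. Their highest control library was 1.87 to 2.55 times the lowest, where the median over all genes was 1.20, and that of Lgals1 was 1.15. A ratio over 1.5 was found in 9 of the 10 genes and in 22.6% of all genes, or in 4.93% of the 8666 genes with at least 10 CPM. In the MAARS gapmeR group it was found in 8 of the 10 genes and in 18.7% of all genes.

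**Figure D2:**
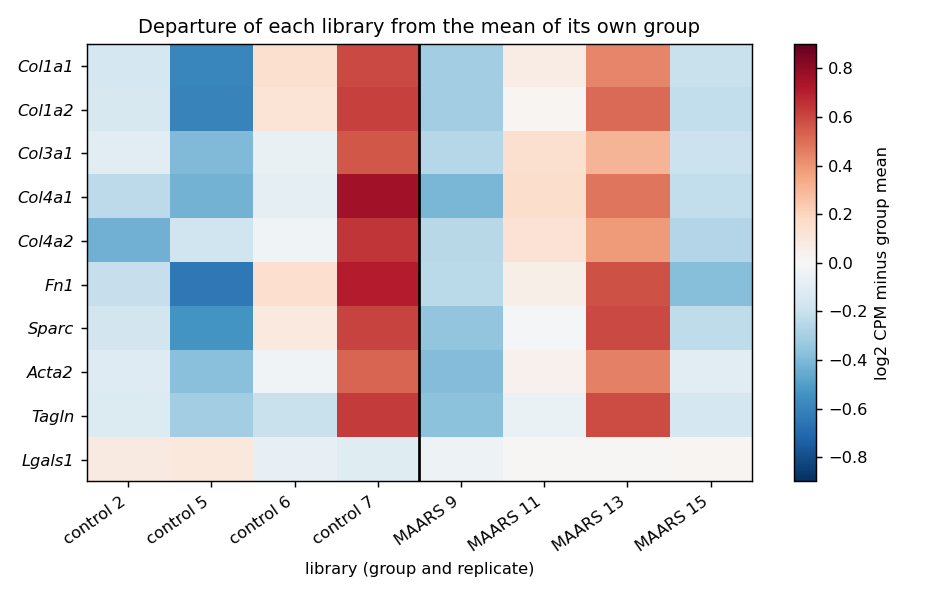
Log2 CPM of each gene in each library minus the mean of that library's own group, by colour. Control 7 lies above its group mean in all genes except Lgals1, MAARS 13 lies above its group mean in all genes, and control 5 and MAARS 9 lie mostly below.

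A likeness of profile was measured as Pearson's r over the 8 libraries between log2 CPM values centred within each group, with the mean of Col1a1, Col1a2 and Col3a1 as reference. It describes how libraries of a group differ, not the effect of the gapmeR, and all points share their libraries and so their depth and RNA. The values were 0.987 for Sparc, 0.986 for Fn1, 0.969 for Acta2, 0.967 for Col4a1, 0.915 for Tagln and 0.877 for Col4a2. Lgals1 stood on the other side of 0, at -0.625. Across all genes tested, 228 had an r of at least 0.9 and 94 of at least 0.95.

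The 10 genes most alike to the fibrillar collagens were Serpinh1, Postn, Gpc1, Prrx1, Cald1, Col5a2, Bgn, Fbln2, Nid1 and Ltbp2, with r from 0.995 down to 0.988. Serpinh1 encodes the collagen chaperone HSP47, Postn periostin, Bgn the small proteoglycan biglycan, and Prrx1 a transcription factor of mesenchymal cells. With the mean of Acta2 and Tagln as reference, the genes most alike included Fermt2, Tpm1, Fhl1, Gng11, Lamb1, Ccn2, Gm2115, Tnc and Dynlrb1, with r from 0.993 down to 0.977. Tpm1 is a tropomyosin of actin filaments, Fermt2 an adaptor of integrin adhesions, and Ccn2 the connective tissue growth factor.

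Since the fibrillar collagens varied so much between libraries, each gene was also set against Col1a1 in its own library, a ratio chosen after the counts had been seen. Col1a2 gave 105.5, 103.8, 102.9 and 106.2 counts per 100 counts of Col1a1 in control 2, 5, 6 and 7, and 99.5, 96.3, 104.3 and 98.2 in MAARS 9, 11, 13 and 15. The chains of type I collagen thus kept nearly 1 ratio, with a coefficient of variation of 1.44% in the control group, although their levels spread more than 2-fold there (2.27 and 2.32 times). Sparc moved from 35.6 ± 1.12 to 34.1 ± 2.57 and Fn1 from 80.5 ± 4.46 to 86.1 ± 7.88 counts per 100 of Col1a1 (SD, n = 4), with overlapping groups.

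Acta2 did not keep its ratio. It gave 21.2, 23.9, 18.2 and 19.7 counts per 100 of Col1a1 in control 2, 5, 6 and 7, and 27.9, 28.9, 29.7 and 31.7 in MAARS 9, 11, 13 and 15, and the groups did not overlap. The means were 20.8 ± 2.42 and 29.5 ± 1.60 (SD, n = 4), 1.42 times higher with the MAARS gapmeR. Col4a1 gave 3.88, 4.58, 3.49 and 4.59 in the control libraries and 5.25, 6.01, 5.80 and 5.56 in the others, also without overlap, 1.37 times higher. Col4a2 (1.24 times) and Tagln (1.26 times) overlapped between the groups by this ratio, and Lgals1, which did not follow Col1a1, spread from 149.5 to 390.1 in the control group alone. The share of all genes tested that separate by this ratio was not computed, so the separation cannot be called particular to Acta2 and Col4a1.

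**Figure D3:**
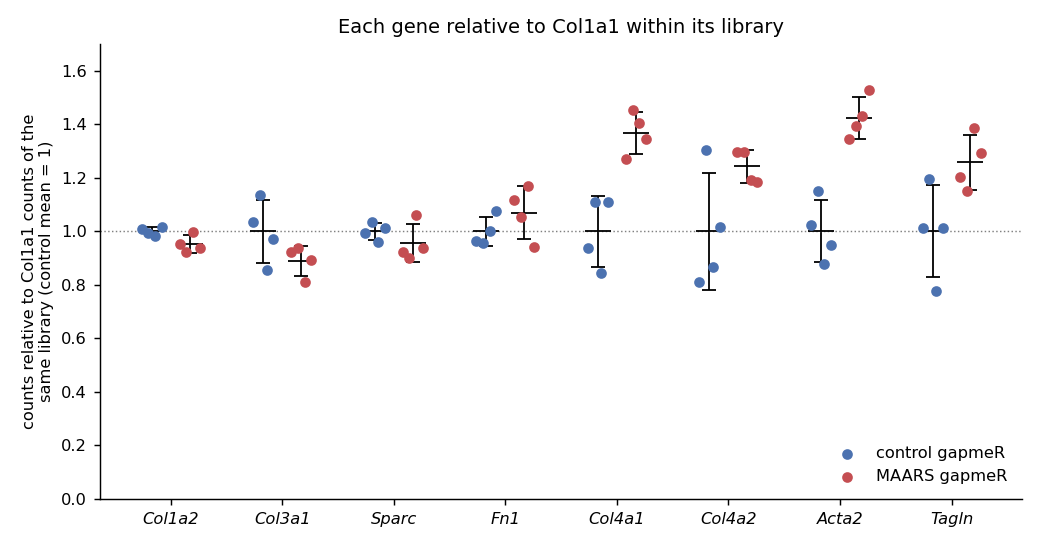
Counts of each gene relative to the Col1a1 counts of the same library, scaled so that the control mean is 1, on a linear axis. Points are libraries and bars are the mean ± SD of 4. The groups separate for Acta2 and Col4a1 and overlap for the other 6 genes. The share of all genes tested that separate by this ratio was not computed.

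The same question was put to the fit over all genes, by adding the mean log2 CPM of Col1a1, Col1a2 and Col3a1 as a covariate. This fit was added after the data had been seen, and the 3 genes in the covariate were not tested in it. The covariate is itself a level measured in the same libraries, centred on their mean. It ran from -0.69 to 0.42 in the control libraries and from -0.12 to 0.59 in the others. Since it lay higher in the MAARS gapmeR group, the fit does not isolate an effect of the gapmeR. Acta2 kept a log2 fold change of 0.63 (SE 0.0666, adjusted p = 1.88e-05), Col4a1 of 0.49 (SE 0.0902, adjusted p = 0.00108), Col4a2 of 0.44 (SE 0.122, adjusted p = 0.012) and Tagln of 0.42 (SE 0.119, adjusted p = 0.0126). These are smaller differences than without the covariate, with smaller errors. Lgals1 was 0.26 higher on the log2 scale (adjusted p = 0.00283), while the differences were 0.09 for Fn1 (adjusted p = 0.246) and -0.026 for Sparc (adjusted p = 0.745). In this fit 22.7% of the 13048 genes were called higher.

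**Figure D4:**
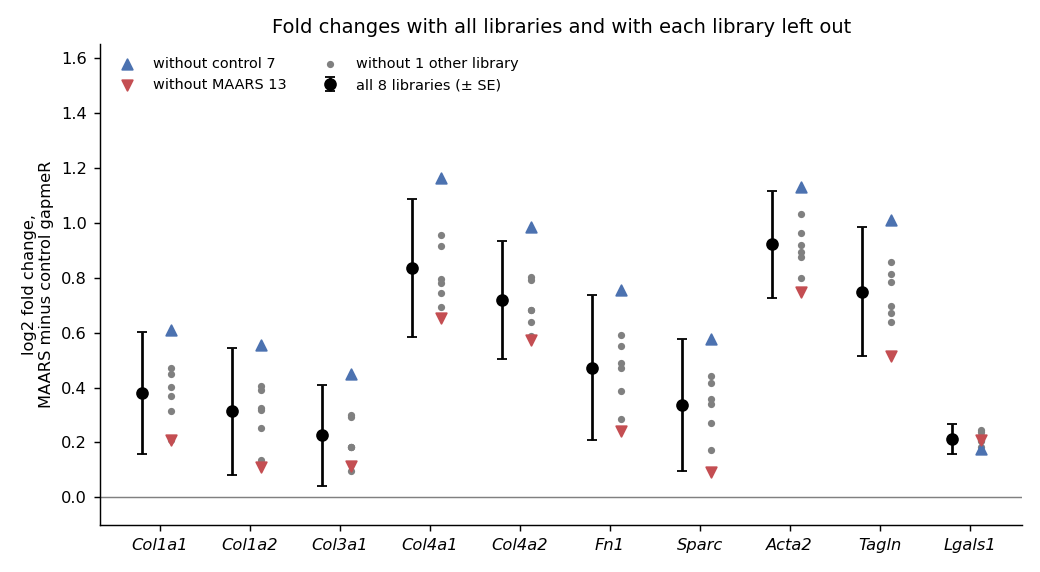
Log2 fold change of each gene, MAARS minus control gapmeR, with all 8 libraries (black, ± SE) and with each library left out (coloured for control 7 and MAARS 13, grey for the others). For 9 of the 10 genes the value was highest without control 7, and every value stayed above 0.

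Which libraries were included decided whether most of these genes passed the threshold. The calls lost by leaving out 1 library had adjusted p-values of 0.0506 to 0.0641, close to it. Without control 7, 9 of the 10 genes were called higher, all but Sparc. Without MAARS 13 or without control 5, only Acta2 and Lgals1 were called, and without control 6 Col4a2 as well. Over all genes, 2486 of 13215 were called higher without control 7 and 2422 of 13191 without MAARS 13. Without control 5 it was 2589 of 13265 genes, and without control 6 it was 2323 of 13241. Without both control 7 and MAARS 13, a choice made after the data had been seen, Fn1, Col4a1, Col4a2, Acta2 and Tagln were called and Lgals1 was not. In that fit 2163 of 13052 genes were called higher. No fold change of the 10 genes changed sign when 1 library was left out.

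Among markers of other cells that a marrow culture can hold, most of those tested for fibroblasts and smooth muscle were highest in the same libraries. Of the tested markers, 1 of 5 endothelial, 1 of 3 marrow stromal and osteoblast-lineage and 2 of 7 other blood cell markers were highest in both. Of 18 fibroblast and stromal markers, 13 were tested, 3 were called higher (S100a4, Lrp1 and Col6a1) and none lower, and 10 of the 13 were highest in control 7 and in MAARS 13. The 3 higher calls became 9 without control 7 and 5 without MAARS 9. Their summed level was 3866 to 4250 CPM in the control libraries and 3940 to 4357 CPM in the others, and most of it came from Vim (2635 CPM in the control mean) and Lrp1 (1086 CPM), which macrophages also express. Without Vim, Lrp1 and S100a4, a choice made after the values were seen, the other 15 markers summed to 238.4, 184.6, 286.4 and 406.1 CPM in control 2, 5, 6 and 7, and to 279.8, 371.5, 495.8 and 293.3 CPM in MAARS 9, 11, 13 and 15. Control 7 and MAARS 13 were highest in this sum, but the 3 genes left out were the tested markers not highest in both libraries. That order therefore followed from the choice and is no support. With all 18 markers, control 2 (4250 CPM) and MAARS 11 (4357 CPM) were highest. The fibroblast markers Pdgfra (2.00 CPM in the control mean), Pdgfrb (3.38 CPM) and Dcn (2.97 CPM) were low, did not pass the test, and were highest in control 7 and MAARS 13. Their log2 fold changes were 0.21, 0.55 and -0.79. Dcn and Vim (-0.14, not called) were the only tested markers of the list with negative values. Lum, Thy1, Dpt, Mfap5 and Fap were too low to be tested, Lum with 0 counts over the 4 control libraries and 4 over the others, while Col5a1 (51.6 CPM), Col5a2 (65.4 CPM) and Postn (69.6 CPM) were well measured in the control mean. The part of such cells in the results was not tested.

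Of 11 smooth muscle markers that are not among the 10 genes, 9 were tested, 4 were called higher and none lower, with a median log2 fold change of 0.88 beside 0.008 for all genes. Actg2, the other smooth muscle actin, gave 7.22, 6.06, 5.41 and 9.77 CPM in control 2, 5, 6 and 7, and 11.2, 14.1, 19.3 and 15 CPM in MAARS 9, 11, 13 and 15, without overlap (log2 fold change 1.06, SE 0.194, adjusted p = 0.00106). Smtn (smoothelin, 0.89), Myl9 (a regulatory myosin light chain, 0.92) and Tpm2 (a tropomyosin, 0.66) were the other called markers, with log2 fold changes in parentheses. Myh11, the myosin heavy chain that defines mature smooth muscle, was too low to be tested, with 10 counts over the 4 control libraries and 30 over the 4 others, and so was Synpo2. The summed level of the 11 markers was 55.0 to 120.0 CPM in the control libraries, highest in control 7, and 96.8 to 177.4 CPM in the others, highest in MAARS 13. The 4 higher calls became 9 without control 7 and 2 without MAARS 13. The part of such cells in the rise of Acta2 and Tagln was not tested.

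Markers of other lineages were also read, of which Adipoq, Bglap and Cdh5 define adipocytes, osteoblasts and endothelium. Of the 10 marrow stromal and osteoblast-lineage markers 3 were tested, with Runx2 higher (log2 fold change 0.58; 2 genes higher without control 7) and Kitl lower (-0.41), and their summed level was 34.2 to 41.7 CPM in the control libraries and 33.4 to 42.1 CPM in the others. Adipoq was at 0 counts in every library, and Bglap had 0 counts over the control libraries and 3 over the others. Of 8 endothelial markers 5 were tested, with Vwf higher (1.03) and Kdr (-1.54) and Eng (-0.79) lower, and the defining markers Cdh5 (1.54 CPM in the control mean) and Pecam1 (1.75 CPM) did not pass the test. Of the 12 macrophage markers 4 were higher and 6 lower, among them Fcgr1, an Fc receptor (-2.09). The summed level of the 12 was 19260 to 23010 CPM in the control libraries, lowest in control 7. It was 21720 to 24740 CPM in the others, with MAARS 13 at 23140 CPM, second to MAARS 9. Most of the control sum came from Lyz2 (9402 CPM in the control mean) and Lgals3 (3977 CPM). Lyz2, Lgals3, Cd68 and Itgam were lowest in control 7, and the other macrophage markers in control 2 or control 5. Of 13 markers of other marrow blood cells 7 were tested, with Pf4 higher (1.00) and Cd34 lower (-2.16). S100a8 and S100a9, abundant in neutrophils, did not pass the test but were highest in the same libraries as the collagens, with S100a8 at 47.0 CPM in control 7 beside 17.2 to 27.1 CPM in the other controls and at 28.0 CPM in MAARS 13 beside 21.1 to 22.4 CPM in the others. S100a9 was at 92.8 CPM in control 7 and 58.2 CPM in MAARS 13, again the highest of each group, and so was the stromal chemokine Cxcl12 at 14.8 and 14.6 CPM. S100a8 and S100a9 were the only 2 of the 7 tested blood cell markers that were highest in both libraries. Mpo and Elane were highest in control 7 but not in MAARS 13, where Elane was lowest (0.276 CPM). The part of such cells in the results was not tested.

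Other collagen chains were read as a list of 22 genes, of which 16 were tested, 4 were called higher and 1 lower. Their median log2 fold change was 0.52, and 5 of the 22 are also on the list of fibroblast markers. Col18a1, the basement membrane chain from which endostatin is cut, rose without overlap, from 28.4, 22.6, 23.3 and 24 CPM in control 2, 5, 6 and 7 to 39.3, 41.6, 38.1 and 35.8 CPM in MAARS 9, 11, 13 and 15 (log2 fold change 0.66, SE 0.0778, adjusted p = 5.8e-05). Its highest libraries were not those of the fibrillar collagens. Col8a1 (0.84), Col5a3 (0.80) and Col6a1 (0.60) were the other chains called higher, and Col15a1 (-0.70) was called lower. Without control 7 the 4 higher calls became 11. The summed level of the 22 genes was 179.3 to 361.9 CPM in the control libraries, highest in control 7, and 289.0 to 470.9 CPM in the others, highest in MAARS 13.

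Of 14 partners of type IV collagen in basement membranes, 10 were tested, 4 rose and 1 fell, with a median log2 fold change of 0.54. The laminin chains Lamb2 (1.41), Lama3 (0.97) and Lamc1 (0.46) rose without overlap between the groups, and agrin (Agrn, -0.51) fell. Of these, Lamb2 rose from 2.27 to 6.03 CPM and Lamc1 from 63.6 to 87.3 CPM in the means. Without control 7, 7 partners were called higher.

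All 23 enzymes and chaperones that modify and cross-link collagen were tested, and 6 were called higher and 6 lower, shares close to the 21.3% and 24% of all genes. The median log2 fold change of the 23 was 0.31. The called genes with the smallest p were Plod3 (-0.72) and Plod1 (-0.22), which hydroxylate lysines of collagen, Ppib (-0.24), a prolyl isomerase of the endoplasmic reticulum, and Pcolce2 (1.32), an enhancer of procollagen cleavage. Pcolce2 was near the floor, at 0.448 and 1.13 CPM in the means, with 35 counts over the control libraries and 103 over the others. The 6 higher calls became 1 without control 5, control 6 or MAARS 13, 2 without control 2, and 11 without control 7.

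Of 18 matricellular and elastic fibre proteins, 16 were tested, 6 rose and 1 fell, with a median log2 fold change of 0.33. Thrombospondin-1, an activator of latent TGF-beta, had the smallest p. Thbs1 was at 299.4, 378.8, 410.2 and 428.3 CPM in control 2, 5, 6 and 7, and at 1008, 889.5, 1016 and 1158 CPM in MAARS 9, 11, 13 and 15, well apart (log2 fold change 1.43, SE 0.109). Fbln5 (1.20), an organiser of elastic fibres, Emilin1 (0.42) and Ccn2 (0.75) also rose.

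Of 17 receptors for fibronectin and collagen, 15 were tested, 5 rose and 2 fell. Mrc1, the mannose receptor of macrophages, which also takes up collagen, rose from 673.0 to 1164 CPM (log2 fold change 0.79), and Cd44, a hyaluronan receptor that also binds matrix proteins, rose as well (0.37). Itga5, the alpha chain of the classical fibronectin receptor (-0.41), and Lair1, an inhibitory collagen receptor of leukocytes (-0.61), fell. The 5 higher calls became 2 without control 5 or MAARS 11 and 3 without control 6 or MAARS 13. Itgb1, the common beta chain, was at 885.9 and 939.8 CPM in the means and did not pass the test.

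Most other galectin genes tested were lower, and 1 was higher as Lgals1 was. Of 8 genes in that list 5 were tested, 4 fell and 1 rose, with a median log2 fold change of -0.49. Lgals9 was at 516.5, 543.8, 617.4 and 592.2 CPM in control 2, 5, 6 and 7, and at 184.3, 239.6, 265.7 and 218.1 CPM in MAARS 9, 11, 13 and 15, a log2 fold change of -1.32. Lgals3bp (-1.08), which encodes a galectin-binding glycoprotein and not a galectin, and Lgals8 (-0.49) also fell. Lgals3, the most abundant of the list, fell from 3977 to 3271 CPM in the means (-0.28). Lgals4 rose (1.39) from a low level, 0.726 to 1.93 CPM in the means.

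Among 20 actins and actin-binding genes, 17 were tested, 11 rose and 2 fell, with a median log2 fold change of 0.34, and 4 of the 20 (Actg2, Tpm2, Myl9 and Cald1) are also on the list of smooth muscle markers. Those with the smallest p were Actn1 (alpha-actinin-1, 0.39), Tpm3 (a tropomyosin, -0.30), Cnn2 (calponin-2, 0.86) and Actg2 (given above). The cytoplasmic actins, Actb (3608 and 3860 CPM in the means) and Actg1 (1236 and 1287 CPM), did not pass the test. Without MAARS 13, 7 genes of this list were called higher. Of 10 genes of serum response factor, its coactivators and their direct targets, 9 were tested, 2 rose (Vcl, vinculin, 0.36, and Egr1, 0.36) and 2 fell (Srf, -0.18, and Fos, -0.33), with 1 higher call in place of 2 without control 2, control 6, MAARS 9 or MAARS 13. The coactivator gene Myocd was too low to be tested, with 1 count over the 4 control libraries and 6 over the others.

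Levels of the 10 genes were compared with each other only per length, as FPKM, here CPM divided by the kilobases of all exons of a gene. Lgals1 was by far the most abundant, at 864.8 ± 63.0 FPKM in the control group and 1002 ± 20.4 FPKM in the MAARS gapmeR group (SD, n = 4). In the control group it was followed by Col1a1 (51.1 ± 17.5), Sparc (31.4 ± 10.8), Acta2 (31.0 ± 8.69), Col1a2 (28.3 ± 9.94) and Fn1 (23.4 ± 9.38), and then by Tagln (5.37 ± 1.78), Col3a1 (2.65 ± 0.790), Col4a1 (1.86 ± 0.760) and Col4a2 (1.66 ± 0.576). Neighbours in this order from Sparc to Fn1, and Col4a1 and Col4a2, differed by less than their SD. In the MAARS gapmeR group Acta2 stood next after Lgals1 and Col1a1 at 58.7 ± 14.6 FPKM, above Sparc at 39.7 ± 12.7 FPKM, and Col4a1 at 3.33 ± 0.932 FPKM stood above Col3a1 at 3.10 ± 0.583 FPKM, a difference smaller than either SD.

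The order of several genes depended on the length used. With the longest transcript of each gene in place of all its exons, Col1a2 in the control group was at 65.7 FPKM, above Col1a1 at 56.6 FPKM, Sparc was at 51.8 FPKM and Fn1 at 32.9 FPKM. In the MAARS gapmeR group the longest transcripts placed Col1a2 (81.6 FPKM) and Sparc (65.4 FPKM) above Acta2 (63.4 FPKM) and Col3a1 (5.46 FPKM) above Col4a1 (3.76 FPKM), the reverse of the order by all exons for Col1a2, Sparc and Col3a1. In the control group Lgals1 stayed first by either length, at 976.1 FPKM with the longest transcript, and Col4a2 last, at 1.71 FPKM.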

How the data were processed

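RNA-Seq of ribodepleted RNA from 8 BMDM samples was used. Per the labels and the study's methods, the authors trimmed reads (Trimmomatic 0.36), aligned them (STAR 2.5.2b) to mm10 and Ensembl transcripts, and ran featureCounts (Subread 1.5.2) to count them by gene. The deposited values are raw counts of 49315 genes. Whether strand was used and how reads mapping to several places were treated are not given in the sources used here. No sample column was left unused.

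Counts were analysed with R 4.3.3 and edgeR 4.0.16: filterByExpr (minimum count 10, minimum total count 15), TMM factors, and the quasi-likelihood test, with p-values adjusted over 13051 genes by Benjamini-Hochberg and calls at an adjusted p under 0.05. CPM and FPKM are TMM-normalized. Symbols (99.47% of genes matched), positions and lengths came from GENCODE M21 on GRCm38. Chi-square values per gene between replicates of a group were 4.24 to 15.1, so no library was a copy of another in its group. Libraries of different groups were not compared in this way. The procedure was tested on simulated data.

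The 10 genes and the gene lists were chosen with earlier results of these data known. Besides the 10 genes and MAARS, up to 4 called genes with the smallest p were named per list, marker genes over 10 CPM, and the 10 genes most alike in profile, of which not every result is reported here. Markers and other genes given because they were absent, low or did not pass were chosen after their values were seen. Alternatives used limma 3.58.1, DESeq2 1.42.0 and sva 3.50.0.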

Additional observations from a re-analysis of the deposited data

Results flagged for a closer look

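Of 120 groups of 4 libraries examined, over 60 genes, 3 held a library far from the others by Dixon's ratio (the gap to the nearest library over the whole range, set against its 95% critical value), which chance gives in about 1 of 20 groups. In all 3 it was MAARS 9. Lgals1 was lowest there, at 877.4 CPM beside 910.7 to 917.6 CPM in the other MAARS gapmeR libraries (ratio 0.831). S100a4 was highest there, at 75.0 CPM beside 61.6 to 63.0 CPM (ratio 0.885). Lama3 was highest there, at 13.6 CPM beside 10.6 to 10.7 CPM (ratio 0.966).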

How the results depend on the processing

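Of the 10 genes, 5 were called by DESeq2, by limma-voom, under RLE and upper-quartile factors, with a mean of at least 10 counts and with the collagen covariate, 3 with a robust prior, 7 with no filter, 10 with 1 surrogate variable and 2 at an adjusted p under 0.01. The count ranged from 2 to 9 when 1 library was left out: 2 without control 5 or MAARS 13, 3 without control 6 and 9 without control 7. The cause was not tested. The collagen covariate turned the sign of Sparc (-0.026), which was not called in either fit. Over all genes, 2782 were called higher and 3137 lower, and 1740 and 2214 at an adjusted p under 0.01. Called higher were 3122 of 13051 genes with 1 surrogate variable, 2664 of 24350 with no filter and 2762 of 13051 with a robust prior. With upper-quartile factors 60.4% of the calls were higher, beside 47% with TMM factors, and the same 5 of the 10 genes were called. No scaling or filter tried shifted the median of all genes by 0.1 on the log2 scale. Counts of genes called in the lists stayed within 1.5 times in 213 of 252 list and setting pairs. No paired analysis was possible because the groups share no replicate number. Type IV collagen chains and Tagln, at 153 to 733 counts per library, carry more counting error than most of the 10 genes, with Col3a1 close at 376 to 832. The standard errors of the type IV chains and Tagln (0.215 to 0.251) were still below that of Fn1 (0.264), which held 3233 to 11885 counts.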
